A study of Mus musculus with 8 samples.

Results

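A set of 9 CXC and CX3C chemokine genes was examined, made up of Cxcl16, Cxcl1, Cxcl2, Cxcl9, Cxcl10, Cxcl12, Cxcl13, Cxcl14 and Cx3cl1 and read by 13 of the 60273 probes that carried 47242 distinct names. They were selected on the differences between the 2 groups of these 8 samples, which were already known, and on their family name, and every probe that carried one of the names was taken. Their levels and differences are therefore given as a description and without a test. The 8 samples were 4 of sorted cells labelled Psgl1-/- (replicates 5 to 8) and 4 of sorted cells labelled Psgl1+/+ (replicates 1 to 4). Psgl1 is the selectin ligand gene whose official symbol is Selplg.

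In both groups, bone marrow carrying the fluorescent protein DsRed had been transplanted into wild-type mice, so that donor-derived cells could be told from those of the recipient, and the donor genotype is the one difference the labels give. All mice had a 30 min occlusion of the middle cerebral artery followed by reperfusion, and the ischemic brain was taken at 7 days. Live DsRed+ CD11b+ Ly6G- CD3- CD45hi cells, a gate for blood-derived myeloid cells, were sorted after magnetic enrichment, and their RNA was read on single-colour arrays. The question is which transcripts depend on the donor's Psgl1 genotype. The labels give neither the age of the mice nor how many animals a sample pools, and p-values therefore speak only of the variation among these 8 samples, part of which may be technical.

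Chemokines are small secreted proteins that direct the migration of leukocytes through receptors coupled to G proteins. In the CXC class a single residue separates the first cysteines, and in the CX3C class several do. Cxcl16 and Cx3cl1 differ from the other members in being made as transmembrane proteins, with the chemokine domain on a mucin-like stalk that proteases can cut to release it. In the ischemic brain, myeloid cells, glia and vessel cells are known sources of chemokines that draw neutrophils, monocytes and T cells.

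Because promoter sequences are where inflammatory signals reach these genes, the stretches that hold matches to NF-kB and interferon motifs are shown for the inflammatory members. The stretches lie upstream of the RefSeq transcript start on build GRCm38.p6 and are written 5′ to 3′ on the gene's strand, with matches in capitals. The motifs searched on both strands of the 250 bases before the start were GGGNNNNNCC for NF-kB and GAAANNGAAA for the interferon-stimulated response element, and overlapping matches were joined. Of the 9 members 8 were in the promoter table, and Cxcl16 had no entry. The windows, 150 to 31 bases before the start and for Cxcl10 250 to 1 bases before it, are chr5:90891095-90891214 (plus strand) for Cxcl1, chr5:90903749-90903868 (plus strand) for Cxcl2, chr5:92328110-92328229 (minus strand) for Cxcl9 and chr5:92348890-92349139 (minus strand) for Cxcl10.
Cxcl1: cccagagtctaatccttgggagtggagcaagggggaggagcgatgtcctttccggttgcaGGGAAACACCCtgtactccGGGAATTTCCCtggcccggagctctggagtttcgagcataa
Cxcl2: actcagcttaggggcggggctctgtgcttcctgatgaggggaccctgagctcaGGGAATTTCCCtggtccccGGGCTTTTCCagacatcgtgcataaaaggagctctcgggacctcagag
Cxcl9: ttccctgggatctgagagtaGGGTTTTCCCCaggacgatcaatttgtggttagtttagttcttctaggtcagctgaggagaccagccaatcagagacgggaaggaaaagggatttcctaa
Cxcl10: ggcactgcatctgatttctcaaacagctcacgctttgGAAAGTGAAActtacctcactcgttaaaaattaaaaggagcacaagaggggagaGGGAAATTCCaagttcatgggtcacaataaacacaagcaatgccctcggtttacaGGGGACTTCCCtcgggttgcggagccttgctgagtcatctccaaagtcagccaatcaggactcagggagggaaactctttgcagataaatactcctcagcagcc

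NF-kB letters were found in 6 of the 8 promoters, at 2 places each in Cxcl1, Cxcl2 and Cxcl10 and at 1 place each in Cxcl9, Cxcl12 and Cxcl13, and not in those of Cxcl14 and Cx3cl1. The same letters occur in 45.8% of the 32851 promoters in the table, so a match by itself is common. The interferon element letters were in Cxcl10, 213 to 204 bases before the start, and in Cxcl14, 172 to 163 bases before it, against 3.0% of all promoters. The neighbouring genes Cxcl1 and Cxcl2 share the run GGGAATTTCCCTGG, 14 bases long and the longest they have in common in these windows, which begins 71 bases before the start of Cxcl1 and 97 bases before that of Cxcl2. Only these 2 of the 32851 promoters (0.00609%) hold it on either strand. A match describes letters only and no binding was measured.

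Values below are log2 of the background-corrected spot signal after each array was scaled to the others by its 75th percentile. A difference is the Psgl1-/- mean minus the Psgl1+/+ mean, so a positive value is higher in Psgl1-/- cells, and its standard error (SE) comes from limma fitted over all genes. After this scaling the median difference of all 42436 genes was -0.33, and values relative to that median are given where they change the reading. In sorted bulk samples, fewer cells that express a gene and less of its RNA per cell cannot be told apart. Levels of different probes are not compared, since probes differ in brightness for the same amount of RNA.

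Cxcl16 was the member with the widest separation between the groups. Its product is a scavenger receptor for oxidised lipoproteins as well as a chemokine, made by macrophages and dendritic cells, and draws T cells and natural killer T cells that carry Cxcr6. It was read by 1 probe of 45 bases, well above background on each of the 8 arrays, and its first 30 bases are shown to identify it.
Cxcl16: gagatgaccactctcccttcaggctatggt

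The log2 signal of Cxcl16 was 8.06, 8.92, 9.45 and 8.70 in Psgl1-/- replicates 5 to 8, against 5.86, 7.08, 5.01 and 5.23 in Psgl1+/+ replicates 1 to 4. Before scaling, the processed signals were 306, 563, 780 and 532 on the Psgl1-/- arrays and 53.6, 135, 26.3 and 26.3 on the Psgl1+/+ arrays. The groups did not overlap: the lowest Psgl1-/- array lay 0.98 above the highest Psgl1+/+ array, which was replicate 2. The means were 8.78 ± 0.58 in Psgl1-/- cells and 5.79 ± 0.93 in Psgl1+/+ cells (SD, n = 4 each), a difference of 2.99 (SE 0.52). On the linear scale this is 7.94-fold, with a 95% interval from limma of 3.42 to 18.4. The gene was picked in these same samples, so the interval is a description only. Relative to the median of all genes the difference was 3.32.

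The sign of the Cxcl16 difference was the same in all 22 other settings of scaling, background correction, probe choice, slide row and left-out arrays. Much of this was fixed beforehand. With a single probe, the filters, the probe choices and slide row as a block left the difference at 2.99. Without overlap between the groups, leaving arrays out or taking a slide row alone could not turn the sign. The difference ranged from 2.18 with normexp background correction, or 4.54-fold, to 3.42 without Psgl1+/+ replicate 2. Within slide row 1, where 2 arrays of each group lay, it was 2.66 (SE 0.79), and within row 2 it was 3.32 (SE 0.71). Slide columns 1 and 2 held the Psgl1+/+ arrays and columns 3 and 4 the Psgl1-/- arrays, so column and genotype cannot be told apart.

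**Figure D1:**
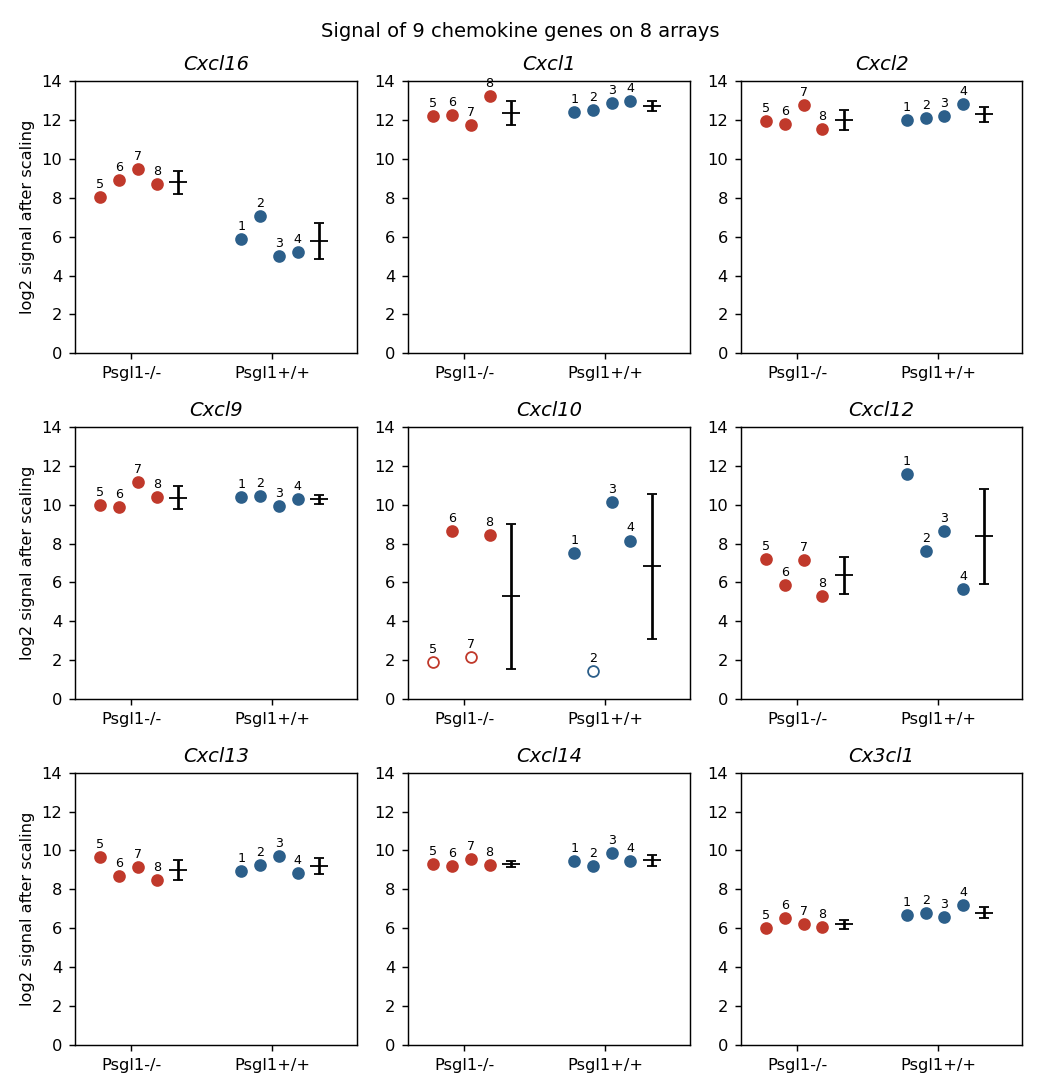
Log2 signal after scaling (vertical axis) of the brightest or only probe of each of the 9 chemokine genes on 8 arrays, with Psgl1-/- on the left and Psgl1+/+ on the right. Numbers are replicates, open points are not well above background, and bars beside the points are mean ± SD (n = 4 each). Cxcl16 is the gene whose 4 Psgl1-/- arrays all lie above the 4 Psgl1+/+ arrays, with a gap of 0.98. Most other genes overlap, and Cxcl10 and Cxcl12 spread most widely.

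Cx3cl1 (fractalkine), the other transmembrane member, is known in brain chiefly from neurons and signals to microglia and monocytes through Cx3cr1. It had 2 probes, which gave unlike pictures. The first bases of both are shown so that they can be told apart, and the files place probe 1 at chr8:97296213-97301245 on build mm9, a span that covers more than the probe itself.
Cx3cl1 probe 1: catttgtgtactctgctgccggcttttctc
Cx3cl1 probe 2: gtgggccgtaacaatctgaggaggactttg

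Probe 1 of Cx3cl1 read 6.02, 6.52, 6.22 and 6.06 in Psgl1-/- replicates 5 to 8, against 6.66, 6.80, 6.57 and 7.18 in Psgl1+/+ replicates 1 to 4. All Psgl1-/- arrays were the lower ones, but the gap between the groups was 0.05, far smaller than the spread within either. Before scaling the processed signals overlapped, at 74.2 to 107 on the Psgl1-/- arrays and 77.5 to 111 on the Psgl1+/+ arrays. The means were 6.21 ± 0.23 in Psgl1-/- cells and 6.80 ± 0.27 in Psgl1+/+ cells (SD, n = 4 each), a difference of -0.60 (SE 0.25), or -0.27 relative to the median of all genes. Probe 2 read 5.43, 7.06, 4.64 and 5.07 in Psgl1-/- cells and 5.74, 5.08, 5.85 and 5.93 in Psgl1+/+ cells. These values overlapped, with Psgl1-/- replicate 6 the highest of the 8 and replicate 7 the lowest. The difference by probe 2 was -0.10 (SE 0.54). With cyclic loess, a scaling that removed nearly all of the shift common to all genes, probe 1 gave -0.24, and with normexp -0.26. Markers of neurons, the known source of Cx3cl1, had means of 10.37 to 11.37 in Psgl1-/- cells and 10.78 to 11.76 in Psgl1+/+ cells, and 3 of the 8 tested, Snap25, Syt1 and Slc17a7, had all Psgl1-/- arrays below all Psgl1+/+ arrays, as had 10.7% of all genes. Of the 8, 7 had a negative difference and 1, Tubb3, a positive one (1.01, SE 0.65, with overlap). Snap25, a synaptic protein gene, ranged from 15.67 to 15.99 in Psgl1-/- cells, against 16.15 to 16.85 in Psgl1+/+ cells. Their part in the Cx3cl1 values was not tested.

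The neutrophil-attracting members Cxcl1 and Cxcl2, ligands of Cxcr2 that macrophages make within hours of tissue injury, had signals that overlapped between the groups. Cxcl1 read 12.20, 12.27, 11.75 and 13.22 in Psgl1-/- replicates 5 to 8, against 12.43, 12.53, 12.88 and 12.95 in Psgl1+/+ replicates 1 to 4. Psgl1-/- replicate 8 was the highest of all arrays and replicate 7 the lowest. The means were 12.36 ± 0.62 in Psgl1-/- cells and 12.70 ± 0.26 in Psgl1+/+ cells (SD, n = 4 each). The difference was -0.34 (SE 0.36), or -0.01 relative to the median of all genes.

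Cxcl2 read 11.95, 11.80, 12.75 and 11.51 in Psgl1-/- replicates 5 to 8, against 12.02, 12.08, 12.21 and 12.81 in Psgl1+/+ replicates 1 to 4. The high array of the knockout group was here replicate 7, which was the low one for Cxcl1, so the neighbouring genes with a shared promoter run did not follow the same order over the Psgl1-/- arrays. Over the Psgl1+/+ arrays both rose from replicate 1 to replicate 4 after scaling, but their order before scaling was not the same. The processed signals of replicates 1 to 4 were 5083, 5895, 6148 and 5561 for Cxcl1. For Cxcl2 they were 3825, 4332, 3877 and 5046. The means were 12.001 ± 0.53 in Psgl1-/- cells and 12.28 ± 0.36 in Psgl1+/+ cells (SD, n = 4 each), a difference of -0.28 (SE 0.35). The sign of the Cxcl2 difference depended on the arrays used, at -0.79 within slide row 1 and 0.23 within slide row 2, and after cyclic loess it was 0.005.

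Cxcl9 and Cxcl10 are interferon-inducible ligands of Cxcr3 that draw activated T cells and natural killer cells. Cxcl9, which depends chiefly on interferon gamma, read 9.97, 9.87, 11.18 and 10.37 in Psgl1-/- replicates 5 to 8, against 10.41, 10.44, 9.92 and 10.29 in Psgl1+/+ replicates 1 to 4. Psgl1-/- arrays were both the highest (replicate 7) and the lowest (replicate 6) of the 8. The means were 10.35 ± 0.60 in Psgl1-/- cells and 10.26 ± 0.24 in Psgl1+/+ cells (SD, n = 4 each), a difference of 0.08 (SE 0.35), whose sign turned in 4 of 22 other settings.

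Cxcl10, which type I as well as type II interferon induces, had the widest spread of the members. Of its 2 probes, the first bases of which follow, the files place probe 2 at chr5:92776616-92776675 on build mm9.
Cxcl10 probe 1: ctttgcattgtatatggaagaacttgtgtc
Cxcl10 probe 2: ctagtgtctagaagtggagcagttattata

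Probe 1 of Cxcl10 read 8.62 and 8.41 in Psgl1-/- replicates 6 and 8 and was not well above background in replicates 5 and 7, which were at 1.91 and 2.18. In Psgl1+/+ cells it read 7.53, 10.16 and 8.15 in replicates 1, 3 and 4, and was not well above background in replicate 2, at 1.47. Each group thus held arrays with a clear signal and arrays without, in 2 of 4 Psgl1-/- and 3 of 4 Psgl1+/+ samples. The means were 5.28 ± 3.74 in Psgl1-/- cells and 6.83 ± 3.74 in Psgl1+/+ cells (SD, n = 4 each), and the difference of -1.55 (SE 2.35) was smaller than its error. It was 3.70 within slide row 1 and -6.80 within row 2, so no direction can be read for Cxcl10. Probe 2 was well above background on 1 of the 8 arrays, Psgl1-/- replicate 8, at 3.17.

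Cxcl12, a ligand of Cxcr4 and Ackr3 that retains leukocytes in bone marrow and that stromal and vessel cells make in brain, had 2 probes assigned to different transcripts.
Cxcl12 probe 1: aaggcagcttcctatatgcagcgtgtgctt
Cxcl12 probe 2: tgtattgtagctttccggtgtcagccacgg

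Probe 1 of Cxcl12 read 7.22, 5.85, 7.14 and 5.30 in Psgl1-/- replicates 5 to 8, against 11.55, 7.60, 8.66 and 5.67 in Psgl1+/+ replicates 1 to 4. The groups overlapped because Psgl1+/+ replicate 4 lay among the Psgl1-/- arrays, while Psgl1+/+ replicate 1 stood far above the rest. The means were 6.38 ± 0.95 in Psgl1-/- cells and 8.37 ± 2.46 in Psgl1+/+ cells (SD, n = 4 each), a difference of -1.995 (SE 1.18), which was -0.93 without Psgl1+/+ replicate 1. Probe 2 read 4.83, 5.14, 4.66 and 4.70 in Psgl1-/- cells and 5.90, 5.97, 6.01 and 5.46 in Psgl1+/+ cells. Here the groups did not overlap after scaling, with a gap of 0.32 and much less spread than by probe 1. Before scaling the processed signals did overlap, at 28.1 to 41.0 on the Psgl1-/- arrays and 30.9 to 62.6 on the Psgl1+/+ arrays. By the brightest probe, 10.7% of all genes were without overlap and lower in Psgl1-/- cells. The difference by probe 2 was -1.002 (SE 0.25), or -0.68 relative to the median of all genes. The means were 4.83 ± 0.22 in Psgl1-/- cells and 5.84 ± 0.25 in Psgl1+/+ cells (SD, n = 4 each).

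Both probes of Cxcl12 gave negative differences. The difference of the gene was negative in all 22 other settings, from -2.93 within slide row 2 to -0.93 without Psgl1+/+ replicate 1. Part of this was fixed beforehand. The filters, every probe on its own, RefSeq-named probes and slide row as a block left the difference at -1.995. The mean of all probes, at -1.50, took in probe 2 as well. The limma interval for probe 1 ran from -4.7 to 0.8, so its sign was not settled. Markers of stromal and vessel cells, which make Cxcl12 in brain, are given beside these values. Of the defining endothelial markers, Pecam1 ranged from 7.54 to 7.89 in Psgl1-/- cells, against 8.43 to 9.16 in Psgl1+/+ cells, without overlap (-1.04, SE 0.25), and Cldn5 (-0.28) and Kdr (-0.27) overlapped. Of the defining pericyte markers, which all overlapped, Pdgfrb was at -1.83, Rgs5 at -0.41 and Cspg4 at 0.37. The largest positive differences in these lists were those of Tek (1.30) and Col1a1 (1.002). The mean of 7 tested pericyte and fibroblast markers was 6.62 to 7.81 in Psgl1-/- cells and 7.27 to 7.77 in Psgl1+/+ cells, which overlap, and that of 7 tested endothelial markers was 8.68 to 10.16 in Psgl1-/- cells and 9.33 to 9.76 in Psgl1+/+ cells. Of the tested markers, 2 endothelial ones were positive and 5 negative, and 3 of the pericyte and fibroblast list were positive and 4 negative, where 31% of all genes were positive and 69% negative. None of these markers passed the limma threshold, with 1 endothelial marker (Pecam1) and 2 of the other list (Col1a2 and Pdgfra) without overlap and lower, as were 10.7% of all genes. Their part in the Cxcl12 values was not tested.

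Cxcl13, the B cell attractant that acts through Cxcr5, read 9.66, 8.69, 9.17 and 8.47 in Psgl1-/- replicates 5 to 8, against 8.96, 9.26, 9.73 and 8.83 in Psgl1+/+ replicates 1 to 4. The groups overlapped over most of their range. The means were 8.996 ± 0.53 in Psgl1-/- cells and 9.20 ± 0.40 in Psgl1+/+ cells (SD, n = 4 each), a difference of -0.20 (SE 0.35) that was 0.05 after cyclic loess.

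Cxcl14 is a conserved chemokine of epithelia and brain that acts on monocytes and dendritic cells. Its probe 1 read 9.32, 9.18, 9.54 and 9.25 in Psgl1-/- replicates 5 to 8, against 9.47, 9.20, 9.86 and 9.44 in Psgl1+/+ replicates 1 to 4. The probe varied little, with means of 9.32 ± 0.15 in Psgl1-/- cells and 9.49 ± 0.27 in Psgl1+/+ cells (SD, n = 4 each) and a difference of -0.17 (SE 0.24), which was 0.07 after cyclic loess. Probe 2 was uneven, at 7.85, 8.21, 5.01 and 5.55 in Psgl1-/- cells and 5.71, 7.996, 5.48 and 5.97 in Psgl1+/+ cells. Psgl1-/- replicates 5 and 6 and Psgl1+/+ replicate 2 were the high arrays, so that high and low signals occurred in both groups, and the difference by probe 2 was 0.36 (SE 0.90).

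**Figure D2:**
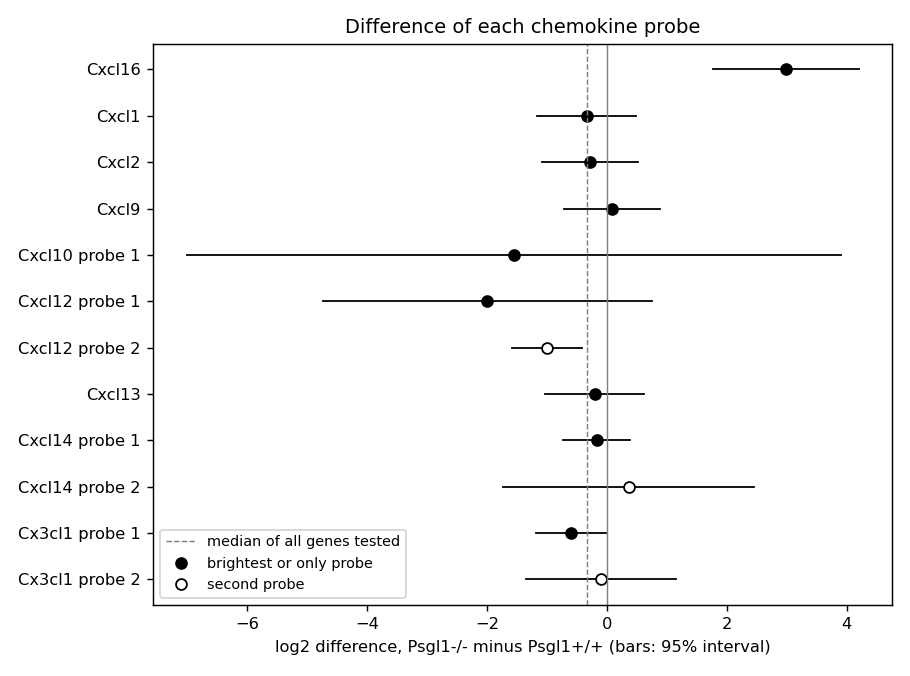
Log2 difference, Psgl1-/- minus Psgl1+/+ (horizontal axis), of the 12 tested probes of the 9 chemokine genes, with 95% intervals from limma (n = 4 each). Filled points are the brightest or only probe of a gene, open points the second probe, the solid line is 0 and the dashed line the median of all genes at -0.33. Cxcl16 stands at 2.99, and most other probes lie near the dashed line.

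All 9 genes passed the filter on dim probes, as did 12 of the 13 probes, and 11 probes were well above background on all 8 arrays. Differences were positive for 2 genes (Cxcl16 and Cxcl9) and negative for 7, where 31% of all genes were positive and 69% negative. Relative to the median of all genes, 5 members lay above and 4 below. The median difference of the members was -0.28, against -0.33 for all genes. By the brightest probe, 1 member had all Psgl1-/- arrays above all Psgl1+/+ arrays (Cxcl16; 0.648% of all genes) and 1 had them all below (Cx3cl1; 10.7% of all genes). By limma 0 of 9 members passed the adjusted threshold of 0.05, as did 0.00236% of all genes in either direction, and at an unadjusted p under 0.05 there were 1 higher (1.62% of all genes) and 1 lower (9.2%). Since the members were picked with this contrast known, nothing is read from these counts.

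**Figure D3:**
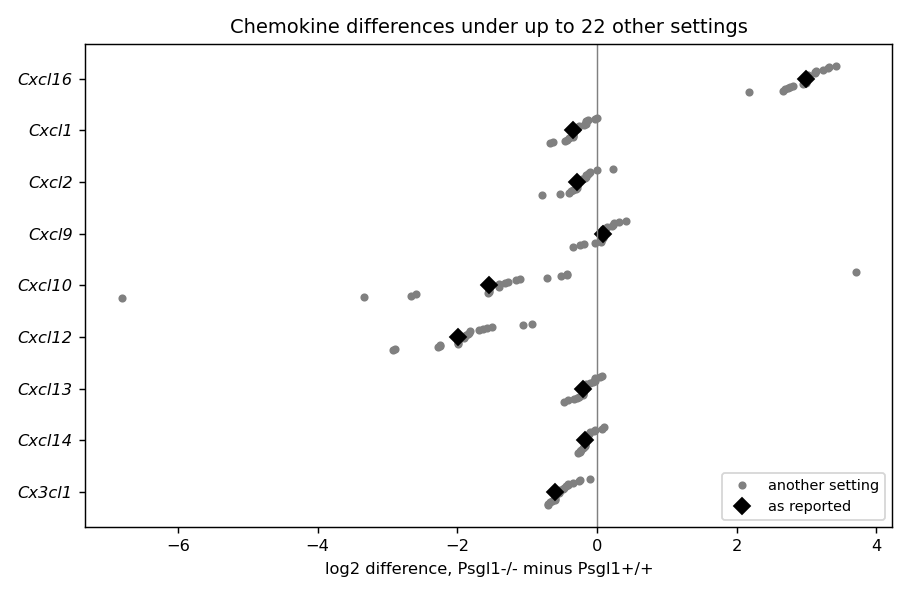
Log2 difference, Psgl1-/- minus Psgl1+/+ (horizontal axis), of each of the 9 genes as reported (diamonds) and under up to 22 other settings (grey points, in order of value). Cxcl16 is above 2 in every setting and Cxcl12 below -0.9, while Cxcl1, Cxcl2, Cxcl9, Cxcl13 and Cxcl14 lie on both sides of 0 and Cxcl10 runs from -6.80 to 3.70.

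Of all genes, 28.4% ranged over more than 4 log2 units across the 8 arrays, and 3 of the 9 members did: Cxcl16, Cxcl10 and Cxcl12. The row of an array on the slide, which holds 2 arrays of each group and had no part in the choice of members, was tested in limma with group as a term. By limma 0 of 9 members passed the adjusted threshold between rows, as did 0% of all 42436 genes. At an unadjusted p under 0.05 there was 1 member, Cxcl12, at 2.54 for row 2 minus row 1 (adjusted p = 0.997), against 3.64% of all genes.

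The genes that the chemokines act with were taken as 5 lists of 43 genes, of which 42 passed the filter. By limma, adjusted over all 42436 genes, 0 of the 42 passed in either direction, and the lowest adjusted p was 0.458. At an unadjusted p under 0.05 there were 2 higher and 3 lower, against 1.62% of all genes higher and 9.2% lower. The differences were positive for 19 and negative for 23 genes, where 31% of all genes were positive and 69% negative. Their median was -0.14 against -0.33 over all genes, and 7 of the 42 changed sign under at least 1 other scaling.

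Among the other CXC ligands, 6 of 7 genes were tested, 1 with a positive and 5 with a negative difference (median -0.61), and Ppbp was not well above background on any array. Pf4, a platelet chemokine that macrophages also make, was at 10.30 ± 1.27 in Psgl1-/- cells and 7.90 ± 2.69 in Psgl1+/+ cells (SD, n = 4 each), a difference of 2.41 (SE 1.33, limma adjusted p = 0.486). Cxcl5, a neutrophil attractant, had all Psgl1-/- arrays below all Psgl1+/+ arrays (-0.83, SE 0.29), as had Cxcl11, the remaining Cxcr3 ligand (-0.56, SE 0.23), both with a limma adjusted p of 0.458. The same held for 10.7% of all genes. The difference of Cxcl11 was positive under 3 other scalings, up to 0.10. Cxcl3 was at -0.67, Cxcl15 at -0.20 (0.04 after cyclic loess) and Cxcl17 at -1.09, with limma adjusted p-values of 0.5003, 0.828 and 0.554 in that order.

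Of the 9 receptors, 2 had a positive and 7 a negative difference (median -0.50). Cxcr6, the receptor of Cxcl16, read 12.54, 6.25, 6.22 and 6.20 in Psgl1-/- replicates 5 to 8, against 7.03, 6.78, 6.06 and 7.11 in Psgl1+/+ replicates 1 to 4. A single array, Psgl1-/- replicate 5, carried the high signal, and it was the array with the lowest Cxcl16 signal of its group. The difference was 1.06 (SE 1.43, limma adjusted p = 0.764), and -0.52 without that array. Cx3cr1, the receptor of Cx3cl1 and a marker of microglia and patrolling monocytes, ranged from 6.68 to 7.35 in Psgl1-/- cells, against 7.57 to 9.53 in Psgl1+/+ cells. The groups did not overlap, with Psgl1-/- arrays the lower ones as in 10.7% of all genes. The difference of Cx3cr1 was -1.30 (SE 0.46, limma adjusted p = 0.458).

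Cxcr4, the receptor of Cxcl12, was at 11.95 ± 1.18 in Psgl1-/- cells and 10.62 ± 2.25 in Psgl1+/+ cells (SD, n = 4 each), a difference of 1.33 (SE 1.14, limma adjusted p = 0.623), and the scavenging receptor Ackr3 was at -0.46 (SE 0.57, limma adjusted p = 0.738). The neutrophil receptors Cxcr1 and Cxcr2 were at -1.11 and -0.30 (0.02 for Cxcr2 after cyclic loess), the Cxcl9 and Cxcl10 receptor Cxcr3 at -0.55, the Cxcl13 receptor Cxcr5 at -0.50 and the decoy receptor Ackr1 at -0.52. Each of these receptors overlapped between the groups, and their limma adjusted p-values were 0.458 (Cxcr1), 0.609 (Cxcr2), 0.469 (Cxcr3 and Ackr1) and 0.769 (Cxcr5).

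Among the 7 proteases that cut chemokines, 3 differences were positive and 4 negative (median -0.30). Adam10, the main constitutive sheddase of Cxcl16 and Cx3cl1, was at 13.66 ± 0.60 in Psgl1-/- cells and 12.74 ± 1.08 in Psgl1+/+ cells (SD, n = 4 each), a difference of 0.92 (SE 0.58, limma adjusted p = 0.522). Adam17, the inducible sheddase of Cx3cl1, was at -0.60 (SE 0.31, limma adjusted p = 0.472). The macrophage elastase Mmp12, which trims neutrophil-attracting CXC chemokines, was at 9.50 ± 2.83 in Psgl1-/- cells and 7.00 ± 1.37 in Psgl1+/+ cells (SD, n = 4 each), a difference of 2.50 (SE 1.40, limma adjusted p = 0.489). Mmp2, which cleaves Cxcl12, was at -1.05, Mmp8 at 0.40, Mmp9 at -0.35 and Dpp4, which clips Cxcl10 and Cxcl12, at -0.30 (0.0007 after cyclic loess), with limma adjusted p-values of 0.565, 0.783, 0.612 and 0.564 in that order.

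The signals that induce the members were taken as 2 lists. Of 9 interferon gamma signalling genes, 4 differences were positive and 5 negative (median -0.01), and the smallest unadjusted p-values belonged to the transcription factor Irf1, at -0.86 (SE 0.47, limma adjusted p = 0.485), and to Ifng itself, at -0.46 (SE 0.29, limma adjusted p = 0.523), which was well above background on 4 arrays. Of 11 NF-kB signalling genes, 9 were positive and 2 negative (median 0.53), where 31% of all genes were positive and 69% negative. Tnfaip3, which encodes the NF-kB inhibitor A20 and is itself an NF-kB target, ranged from 9.89 to 11.46 in Psgl1-/- cells, against 6.98 to 9.50 in Psgl1+/+ cells, a difference of 2.40 (SE 0.59, limma adjusted p = 0.458). The kinase subunit Ikbkg ranged from 6.15 to 12.39 in Psgl1-/- cells, against 4.22 to 5.91 in Psgl1+/+ cells, a difference of 3.63 (SE 1.31, limma adjusted p = 0.458). Both were without overlap between the groups and higher in Psgl1-/- cells, as were 0.648% of all genes, and neither passed.

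**Figure D4:**
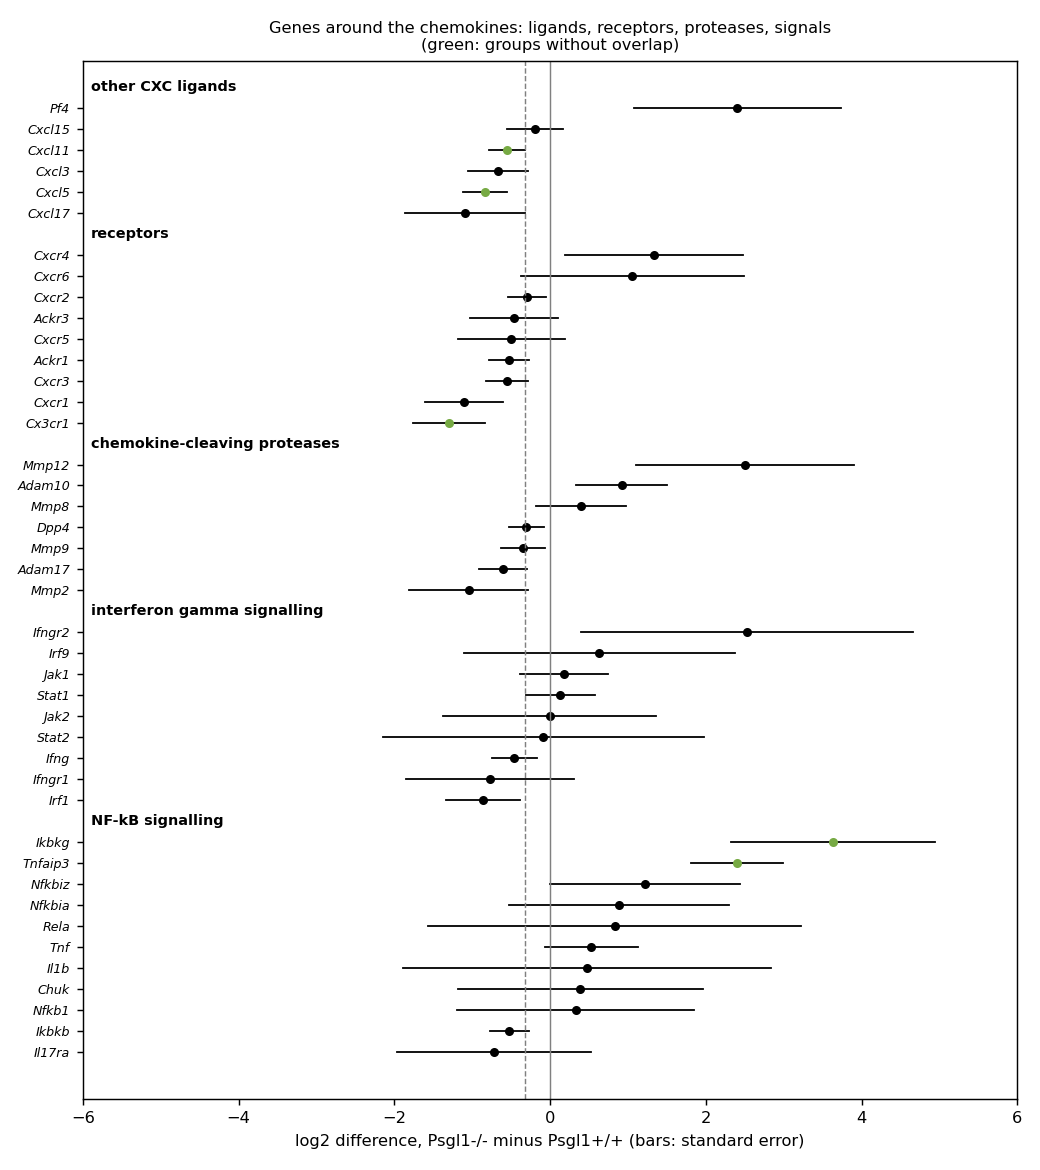
Log2 difference, Psgl1-/- minus Psgl1+/+ (horizontal axis, bars ± SE, n = 4 each), of the 42 tested genes around the chemokines in 5 lists. The solid line is 0, the dashed line the median of all genes at -0.33, and green points are genes whose groups did not overlap. The 2 green NF-kB genes lie to the right (0.648% of all genes were without overlap and higher). The 3 green ligand and receptor genes lie to the left (10.7% of all genes were without overlap and lower), and 0 of the 42 passed the adjusted threshold.

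The genes whose signal followed Cxcl16 most closely over the 8 arrays, among 25619 genes with a symbol, were Eif2ak2 (Pearson r = 0.96), Gm4961 (0.95), Agbl5 (0.95), Polr3k (0.94) and Tnfaip3 (0.94). Eif2ak2 encodes PKR, an interferon-induced kinase that senses double-stranded RNA, Agbl5 a tubulin deglutamylase and Polr3k a subunit of RNA polymerase III. All 5 had higher means in Psgl1-/- cells, and the difference between the groups is part of each r. Within the 4 Psgl1-/- arrays r was 0.06 for Eif2ak2, 0.43 for Tnfaip3, 0.64 for Gm4961, 0.79 for Polr3k and 0.81 for Agbl5, and within the 4 Psgl1+/+ arrays it was 0.83 to 0.98. The points share slide and scaling, and r over so few arrays is a description. For the other members, r with Cxcl16 ran from -0.71 for Cx3cl1 to 0.34 for Cxcl9.

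Markers of the labelled cell type and of other cells were examined. The leukocyte gene Ptprc, the CD11b gene Itgam and the macrophage receptor Csf1r were well above background on all 8 arrays. So were 35132 of the 47242 names by their brightest probe, so detection by itself does not identify the cells. The mean of 10 myeloid markers was 10.42 to 12.76 in Psgl1-/- cells and 10.37 to 12.01 in Psgl1+/+ cells. Markers of cells outside the gate were detected too, with means of 8.92 to 9.82 in Psgl1-/- cells against 7.47 to 9.65 in Psgl1+/+ cells for 8 neutrophil markers. The means of 8 T cell markers were 6.75 to 7.50 in Psgl1-/- cells and 7.17 to 7.85 in Psgl1+/+ cells, those of 6 B cell markers 8.57 to 9.60 in Psgl1-/- cells and 8.92 to 9.61 in Psgl1+/+ cells, and those of 7 astrocyte markers 8.22 to 8.35 in Psgl1-/- cells and 8.08 to 8.67 in Psgl1+/+ cells. For 8 microglia markers the means were 10.88 to 12.17 in Psgl1-/- cells and 9.98 to 12.36 in Psgl1+/+ cells. The groups overlapped in the mean of every list, and 0 markers passed the limma threshold. In the neutrophil list S100a9, a neutrophil and monocyte gene, had no overlap and was higher in Psgl1-/- cells, as were 0.648% of all genes. It ranged from 11.61 to 12.97 in Psgl1-/- cells and from 4.49 to 11.42 in Psgl1+/+ cells, a difference of 4.79 (SE 1.43, limma adjusted p = 0.458). In the same list Csf3r, the neutrophil growth factor receptor gene, was without overlap in the other direction, as were 10.7% of all genes. It ranged from 14.97 to 15.17 in Psgl1-/- cells and from 15.28 to 15.95 in Psgl1+/+ cells (-0.40, SE 0.24, limma adjusted p = 0.513). The other defining markers, Ly6g (2.40, SE 1.54) and S100a8 (0.59, SE 1.20), overlapped, and 5 of the 8 differences were positive and 3 negative. The B cell marker Cd79a (-0.62, SE 0.23) and the microglia marker Siglech (-0.54, SE 0.23) were without overlap and lower, as were 10.7% of all genes. Positive and negative differences numbered 5 and 5 for myeloid, 2 and 6 for T cell and 2 and 4 for B cell markers. They numbered 5 and 3 for microglia and 3 and 4 for astrocyte markers. The part of these markers in the Cxcl16 values was not tested.

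Across the whole array, 76.2% to 88.2% of gene spots were well above background on the Psgl1-/- arrays and 76.1% to 86.8% on the Psgl1+/+ arrays, and the 75th percentile before scaling was 833 to 959 on the Psgl1-/- arrays and 526 to 749 on the Psgl1+/+ arrays. Selplg itself, on chromosome 5 like 5 of the 9 members, was read by 1 probe at 13.18 ± 0.24 in Psgl1-/- cells and 13.81 ± 1.36 in Psgl1+/+ cells (SD, n = 4 each), a difference of -0.63 (SE 0.64, limma adjusted p = 0.684) that was 0.01 without Psgl1+/+ replicate 4. Which part of the gene is deleted is not stated in the labels or the files, so this probe checks nothing about the labels, and every direction above rests on them. By limma 1 gene passed the adjusted threshold, the zinc transporter gene Slc39a6 (4.72, SE 0.29, adjusted p = 0.0125), named because it was the only one.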

How the data were processed

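The deposited scanner files hold linear spot intensities from Agilent Feature Extraction 11.5.1.1, in which background was corrected and nothing was set between arrays, per the file headers, which name build mm9. Per the labels' protocols, RNA was amplified from random primers and labelled with cyanine 3. There was 1 slide and 1 scan date for all 8 arrays. Each array held 62912 spots. Control spots (leaving 61473) and spots marked as outliers (25 to 149 an array) were left out and no spot was saturated. A value table of intensities was deposited as well, whose scale is not stated. Its first column had a median of 132.9, each column matched its own array (correlation 0.9977 or more on the log2 scale), and the value table served as an alternative.

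Probes were named through RefSeq accessions (31064 of 60273), shared symbols (8935) or older symbols (420) of a table on assembly GRCm38.p6. A further 12259 kept an unmatched accession and 7595 another name. Log2 signals were scaled by each array's 75th percentile, each gene was taken by its brightest probe, and genes with this probe well above background on 4 or more of 8 arrays were fitted with limma 3.58.1 (lmFit and eBayes, R 4.3.3), two-sided, with Benjamini-Hochberg adjustment over 42436 genes and a threshold of 0.05. The fit was also run on simulated data, but the outcome is not given here and nothing above rests on it. The number of arrays limits the precision. Correlations and motif searches used Python 3.11.15 with numpy 2.4.6 and pandas 2.3.3, and plots matplotlib 3.10.9.

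The members and gene lists were chosen with earlier results of these data known. The text names all members with every probe, all genes of the ligand, receptor and protease lists, the 2 genes with the smallest unadjusted p of the interferon gamma and NF-kB lists, defining cell type markers, and the 5 genes most correlated with Cxcl16. Csf3r, Siglech, Slc17a7, Tubb3, Tek, Col1a1, Col1a2 and Pdgfra were singled out after their values were seen. Alternatives covered scaling, background correction (normexp, offset 50), the value table, filters, probe choice, slide row and left-out arrays. Protein sequences were not analysed here.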

Additional observations from a re-analysis of the deposited data

Results flagged for a closer look

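Of 44 sets of 4 samples examined (each member probe and each cell type marker mean in each group), 1 held a sample that stood apart from the others. The mean log2 signal of 6 B cell markers was 9.60 on Psgl1-/- replicate 6, against 8.57 to 8.72 on the other Psgl1-/- arrays. The gap was 0.855 of the group's range, above Dixon's critical value for groups of 4, which chance exceeds in about 1 of 20 groups. The B cell attractant Cxcl13 read 8.69 on that array, within the range of the other Psgl1-/- arrays. No member probe stood apart in this way.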

How the results depend on the processing

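No paired analysis was possible because the groups share no replicate number (5 to 8 in Psgl1-/- and 1 to 4 in Psgl1+/+ samples). The count of genes past the adjusted limma threshold was 1 as reported, 4 after cyclic loess, 7 with the filter at all 8 arrays, 6 with the mean of all probes of a gene, 9 with every probe on its own, 12 with RefSeq-named probes, 2 with slide row as a block, and 0 within slide row 1 (before adjustment, 1064 genes higher and 961 lower), within slide row 2 (905 and 1044) and without Psgl1-/- replicates 7 and 8 together (937 and 873). Leaving out 1 array gave 0 to 10 genes, with 10 without Psgl1-/- replicate 6 or Psgl1+/+ replicate 3 and 0 without Psgl1-/- replicate 7 (before adjustment, 766 higher and 2021 lower) or Psgl1+/+ replicate 1 (605 and 2854). The count over the 42 pathway genes was 0 in all 22 other settings, and the count between slide rows was 0 in the 3 settings run. The split at an unadjusted p under 0.05, the limit meant above by before adjustment, was 687 genes higher and 3904 lower as reported, 1249 and 801 by cyclic loess, 820 and 2005 by normexp, 874 and 1859 by array medians, 905 and 1884 by quantiles, and 908 and 1836 by the value table. With cyclic loess the median difference of all genes was -0.01. Beyond the values given with each gene, the difference of Cxcl14 was 0.10 with the mean of its probes and that of Cx3cl1 -0.10 with RefSeq-named probes. Cxcl10 had no value with the filter at all 8 arrays. Dim signals limit Cxcl10 most, since its signal was not well above background on 3 of 8 arrays.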
